A study of Mus musculus with 12 samples.

Results

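Glycolysis genes and other targets of hypoxia-inducible factors were followed through 12 RNA-seq libraries of mouse bone marrow-derived macrophages. The set has 34 genes, chosen by name and found by their Ensembl identifiers among the 46078 genes counted. Of these, 21 encode glucose and lactate transporters, glycolytic enzymes and the enzymes that regulate phosphofructokinase, and 13 encode other targets. All 34 passed the filter on low counts, as did 13837 genes in all. Bone marrow of male C57BL/6 mice was cultured for 7 days with supernatant of L929 cells, which supplies macrophage growth factors. The cells were then moved to serum-free medium. All mice lacked Apoe. The Dicer KO mice were LysMcre/+;Dicerfl/fl;ApoE-/-, so that Cre, expressed from the myeloid Lyz2 (LysM) locus, removes floxed Dicer1, the gene of the enzyme that makes mature microRNAs. The littermate controls were LysMcre/+;Dicer+/+;ApoE-/- by title, although another label calls them wildtype. The names of their deposited counts mark the LysM locus as wt, so the labels conflict on Cre in the controls. All cultures had ethanol overnight and then, for 6 h, either lipopolysaccharide (LPS), a bacterial product that activates macrophages, or phosphate-buffered saline (vehicle), the LPS being at 100 ng/ul as the labels write it. Each of the 4 groups, control vehicle, Dicer KO vehicle, control LPS and Dicer KO LPS, has 3 libraries.

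Glycolysis turns glucose into pyruvate. Hexokinase traps glucose as its phosphate, phosphofructokinase commits it to breakdown, and the lower steps from Gapdh to Pkm yield the ATP. Lactate dehydrogenase regenerates NAD+ by turning pyruvate into lactate, which monocarboxylate transporters carry out of the cell. Hypoxia-inducible factors (HIFs) are transcription factors whose alpha subunits are degraded in oxygen. They bind hypoxia response elements and raise most glycolytic enzymes together with genes for mitophagy, collagen hydroxylation, pH control and the damping of mitochondrial pyruvate use. Macrophages activated by LPS are known for a shift towards glycolysis.

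Levels are given as CPM, read counts scaled to a common library size, with the values of replicates 1, 2 and 3 in that order. TMM, the trimmed mean of M values, set the library sizes, so differences stand relative to most genes. A gene was called where the adjusted p of edgeR's quasi-likelihood test, with Benjamini-Hochberg adjustment over all genes tested, was under 0.05. The labels do not say whether replicates came from separate mice, so p-values then cover only the spread between these libraries, which may be technical. In bulk RNA, fewer cells of a type and less RNA per cell cannot be told apart.

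The libraries held 16172600 to 18886948 counts in genes. Dicer1, the deleted gene, measured 42.6, 45.3 and 43.1 CPM in control vehicle against 20.1, 19.7 and 19.4 CPM in Dicer KO vehicle, and the groups did not overlap in LPS either (-1.15 ± 0.06 SE in vehicle and -1.67 ± 0.07 SE in LPS, as log2 fold changes with their standard errors, SE). Apoe, the gene that all mice lacked, still had enough counts to pass the filter. It was called lower in Dicer KO (log2 fold change -1.67 ± 0.12 SE in vehicle and -1.82 ± 0.21 SE in LPS), and the cause was not tested. Lyz2, the locus that holds Cre, had a mean of 5714 CPM in control and 14.1 CPM in Dicer KO at rest, although the titles give LysMcre/+ for both genotypes. The libraries therefore also differed at the Lyz2 locus, and its part cannot be told apart from that of Dicer1. The other 6 macrophage markers summed to 6600 to 7240 CPM in control vehicle and 6440 to 7320 CPM in Dicer KO vehicle, and to 7030 to 7310 and 7840 to 8050 CPM in LPS. Single markers went both ways. In vehicle Fcgr1 (1.74 ± 0.09 SE) and Cd68 (0.36 ± 0.06 SE) were called higher and Adgre1 (-0.16 ± 0.06 SE), Csf1r (-0.31 ± 0.07 SE) and Itgam (-0.42 ± 0.07 SE) lower, and in LPS 3 of the 6, led by Mertk (1.22 ± 0.08 SE), were called higher and 2 lower. Neutrophil markers, 6 of 7 of which passed the filter, summed to 84.3 to 111 and 79.8 to 104 CPM in vehicle and to 138 to 149 and 148 to 168 CPM in LPS. Of 6 dendritic cell markers 2 passed, and their list summed to 1.18 to 1.54 and 2.52 to 4.42 CPM in vehicle and to 6.78 to 8.45 and 16.6 to 17.8 CPM in LPS. No fibroblast or lymphoid marker passed the filter. These lists summed to at most 1.28 and 0.324 CPM in any library, with Lum and Ncr1 at 0 in all 12 libraries. The part of other cell types in the results was not tested.

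The promoters of a few members are shown because they carry the letters at the core of the hypoxia response element, ACGTG or GCGTG, and because Ldha, Pgk1, Pgam1, Ankrd37 and P4ha2 were all called lower in Dicer KO below. Hk3, which was called higher, is shown beside them. RefSeq gave a promoter for 33 of the 34 members on GRCm38.p6, and the 250 bases before the first listed start were searched on both strands. Capitals mark each match, read as CACGT or CACGC where it lies on the other strand. The E-box CACGTG holds ACGTG on both strands. The stretches run 5′ to 3′ on the strand of the gene.
Ldha, chr7:46845659-46845778 (+ strand, positions -145 to -26 from the start): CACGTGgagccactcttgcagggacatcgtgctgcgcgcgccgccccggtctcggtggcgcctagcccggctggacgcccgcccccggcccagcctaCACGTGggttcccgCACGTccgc
Pgk1, chrX:106186950-106187069 (+ strand, positions -150 to -31 from the start): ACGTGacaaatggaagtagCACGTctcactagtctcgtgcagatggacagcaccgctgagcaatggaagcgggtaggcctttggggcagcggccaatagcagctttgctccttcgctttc
Pgam1, chr19:41911696-41911815 (+ strand, positions -175 to -56 from the start): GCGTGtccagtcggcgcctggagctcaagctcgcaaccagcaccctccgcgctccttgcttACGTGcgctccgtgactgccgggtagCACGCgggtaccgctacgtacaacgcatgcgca
Ankrd37, chr8:45999972-46000091 (- strand, positions -241 to -122 from the start): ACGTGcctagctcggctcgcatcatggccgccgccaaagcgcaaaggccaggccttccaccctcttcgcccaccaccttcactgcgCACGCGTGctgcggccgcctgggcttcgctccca
P4ha2, chr11:54100804-54100923 (+ strand, positions -120 to -1 from the start): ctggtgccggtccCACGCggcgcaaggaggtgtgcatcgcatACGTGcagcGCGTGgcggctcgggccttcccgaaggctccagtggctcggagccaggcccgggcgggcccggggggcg
Hk3, chr13:55021422-55021541 (- strand, positions -156 to -37 from the start): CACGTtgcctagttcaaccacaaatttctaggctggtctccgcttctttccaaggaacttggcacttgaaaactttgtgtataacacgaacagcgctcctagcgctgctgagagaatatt
ACGTG was found in 17 of the 33 member promoters (51.5%), against 21.8% of the promoters of tested genes. GCGTG was found in 54.5% against 44.9%, either of them in 27 members (81.8%) against 56%, and the E-box in 12.1% against 8.43%. By group, 16 of 21 glycolytic genes and 11 of 12 other targets held either core. Ldha, lactate dehydrogenase A, held the E-box at 2 places. Hk3 held 1 match. Aldoa, Gpi1, Hk1, Mxi1, Pkm and Tpi1 held neither. For 11 members RefSeq lists more than 1 start, and Aldoa, Hk1, Mxi1 and Pkm held a core at another of theirs, so that 31 of the 33 held one at any listed start. Of the 6 with neither core at the first start, all but Hk1 were called lower in Dicer KO in both conditions below. P4ha1 held both cores and was called in neither condition. Whether a core goes with the calls was not tested. A match is a stretch of letters and not a measured binding site.

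Most members had lower levels in Dicer KO macrophages than in control, both at rest and after LPS. In vehicle 28 of the 34 members were called lower and 1, the hexokinase gene Hk3, was called higher. Of all genes tested, 21.2% were called lower and 25.0% higher. In LPS 26 members were called lower and 3 higher (Hk1, Hk3 and Pfkfb3), where 27.0% of all genes were called lower and 28.8% higher. The median log2 fold change of the 21 glycolytic members was -0.59 in vehicle and -0.67 in LPS. That of the 13 other targets was -0.98 and -1.23, and that of all genes tested 0.01 and -0.03. In both genotype comparisons 23 members, 13 glycolytic and 10 other targets, were called lower, against 11.8% of all genes tested. The 2 comparisons share no library, but they share the same fit, with its scaling and estimate of the spread, and are not independent. P4ha1, a collagen prolyl 4-hydroxylase subunit, was called in neither. With plain library totals in place of TMM, the median of all genes moved by -0.13 in vehicle and -0.35 in LPS, and 30 and 31 members were called lower. Of all 13837 genes tested, 4577 in vehicle and 7626 in LPS were then called lower. Hk1 then turned from called higher to called lower in LPS (-0.15, adjusted p = 0.0396) and was -0.1 in vehicle, P4ha1 was -0.13 in LPS, and the rise of Pfkfb3 in LPS was no longer called.

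**Figure D1:**
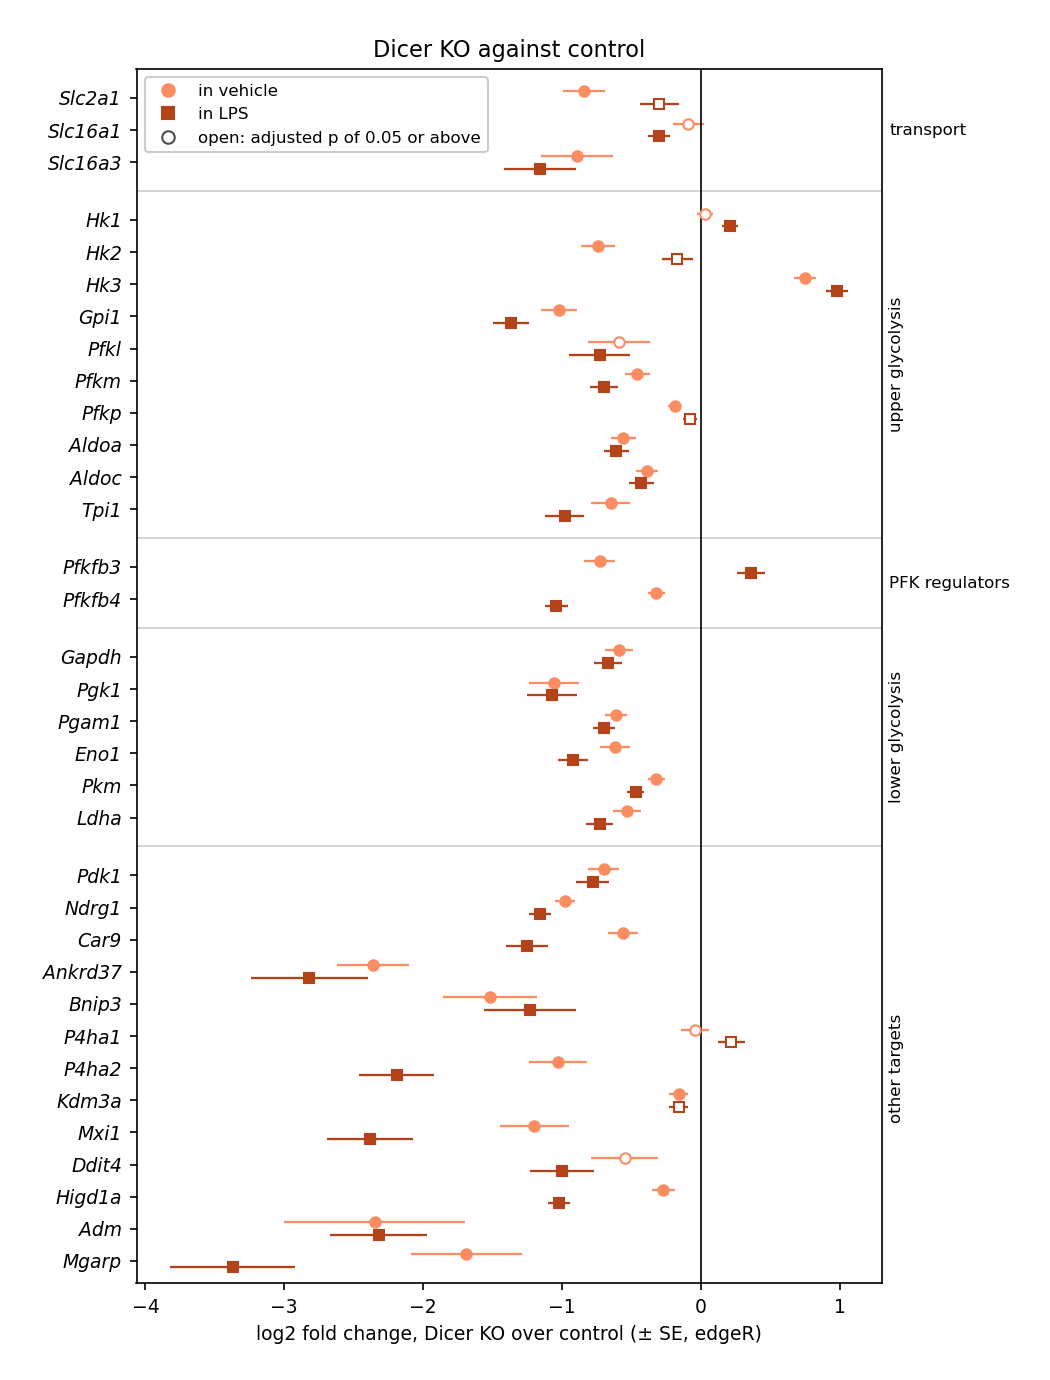
Log2 fold change of Dicer KO over control (x axis, bars are ± 1 SE from edgeR) for the 34 members, grouped by role, in vehicle (circles) and in LPS (squares). Filled symbols were called at an adjusted p under 0.05. Most points lie left of 0, and Hk3 lies right of it in both.

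Compared per kilobase of exon in control vehicle, the members spanned more than 3 orders of magnitude. Aldoa, aldolase A, led at 600 CPM per kb, followed by Pkm (411), Pgk1 (350), Gapdh (347), Ldha (292), Tpi1 (259), Eno1 (174), Gpi1 (138) and Pgam1 (116). Hk3 was the highest hexokinase at 74.6 CPM per kb, against 12.3 for Hk1 and 11.9 for Hk2. Among the other targets Bnip3 (63.8), P4ha1 (33.2), Ndrg1 (28.5) and Ankrd37 (26.4) were highest. Car9, P4ha2, Mgarp and Adm were lowest, between 3.54 and 0.32 CPM per kb, and their counts limit what can be read from them. The order depends on exon lengths merged over all annotated transcripts. It also depends on reads that may be lost to copies. Of the 50-base exon windows, 82.5% of those of Gapdh and 72.2% of those of Eno1 also occur in other annotated genes.

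The glucose transporter Slc2a1 (GLUT1, GRCm38 chromosome 4, 119108711 to 119137983) was lower in resting Dicer KO macrophages. It measured 121, 115 and 104 CPM in control vehicle against 66.9, 46.5 and 76.0 CPM in Dicer KO vehicle, with no overlap (log2 fold change -0.84 ± 0.15 SE and adjusted p = 0.00108). After LPS Slc2a1 measured 369, 444 and 402 CPM in control and 354, 318 and 314 CPM in Dicer KO. These LPS groups did not overlap either, but the difference was not called (log2 fold change -0.3 ± 0.14 SE and adjusted p = 0.1). Slc16a3 (chromosome 11, 120948480 to 120960868), which encodes the lactate exporter MCT4, measured 271, 263 and 207 CPM in control vehicle against 159.7, 78.9 and 162 CPM in Dicer KO vehicle. With LPS, Slc16a3 was at 481, 586 and 518 CPM in control and 285, 212 and 211 CPM in Dicer KO. It fell by 0.89 ± 0.26 SE on the log2 scale in vehicle (adjusted p = 0.0232) and by 1.16 ± 0.26 SE in LPS (adjusted p = 0.00477). The vehicle call was lost without replicate 1 of control vehicle (-0.82, adjusted p = 0.0739) or replicate 2 (-0.84, adjusted p = 0.066). Slc16a1 (chromosome 3, 104638668 to 104658462), which encodes the lactate and pyruvate carrier MCT1, was scarce at rest, at 6.92, 7.09 and 8.19 CPM in control and 6.84, 7.72 and 6.30 CPM in Dicer KO, and the groups overlapped. In LPS Slc16a1 measured 61.5, 62.4 and 55.6 CPM in control and 49.3, 52.3 and 43.9 CPM in Dicer KO, a called fall (log2 fold change -0.3 ± 0.08 SE and adjusted p = 0.00246).

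Upper glycolysis held the only member called higher in Dicer KO in both conditions. In vehicle 7 of its 10 genes were called lower and 1 higher, and in LPS 6 lower and 2 higher. Hk3 (chromosome 13, 55005985 to 55021385), a hexokinase typical of myeloid cells, measured 246, 260.4 and 318 CPM in control vehicle against 443, 499.6 and 444 CPM in Dicer KO vehicle. Its LPS values were 548, 494 and 572 CPM in control and 1056, 1054 and 1069 CPM in Dicer KO. Every Dicer KO library was above every control library of its treatment, by 0.75 ± 0.08 SE on the log2 scale in vehicle (adjusted p = 1.42e-06) and 0.98 ± 0.08 SE in LPS (adjusted p = 2.41e-08). Hk2 (chromosome 6, 82725025 to 82774454), the inducible hexokinase, went the other way at rest, with 76.4, 75.0 and 62.4 CPM in control vehicle against 46.4, 33.3 and 47.8 CPM in Dicer KO vehicle (log2 fold change -0.74 ± 0.12 SE and adjusted p = 0.000359). After LPS the Hk2 groups came close, at 167, 182 and 174 CPM in control and 167, 154 and 144 CPM in Dicer KO, and the difference was not called (log2 fold change -0.17 ± 0.11 SE and adjusted p = 0.223). Hk1, the housekeeping hexokinase, had values of 103, 109 and 103 CPM in control vehicle against 110.1, 98.9 and 112 CPM in Dicer KO vehicle, which overlapped. It was 0.21 ± 0.06 SE higher on the log2 scale in LPS (adjusted p = 0.00656), but with library totals it was called lower there (-0.15, adjusted p = 0.0396).

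Gpi1 (chromosome 7, 34201330 to 34230336), the glucose-6-phosphate isomerase that follows hexokinase, fell most of the upper enzymes. It measured 981, 934 and 756 CPM in control vehicle against 496, 354 and 467 CPM in Dicer KO vehicle, a 2.03-fold fall (log2 fold change -1.02 ± 0.13 SE and adjusted p = 7.23e-05). After LPS Gpi1 measured 588, 690.1 and 622 CPM in control and 271, 235 and 228 CPM in Dicer KO, a fall of 2.59-fold (log2 fold change -1.37 ± 0.13 SE and adjusted p = 3.75e-06). Neither pair of groups overlapped. Of its 50-base exon windows, 25.3% also occur in other annotated genes, and 11.5% of its exon length overlaps a gene on the opposite strand. The 3 phosphofructokinase genes, which encode the committing enzyme, fell less. Pfkm was lower in both conditions (-0.46 ± 0.09 SE in vehicle and -0.7 ± 0.1 SE in LPS, as log2 fold changes). Pfkp was -0.19 ± 0.05 SE in vehicle, a call that was lost without replicate 3 of control vehicle and replicate 2 of Dicer KO vehicle together (-0.12, adjusted p = 0.0726), and was not called in LPS (-0.08 ± 0.05 SE). Pfkl, the liver form, measured 139.9, 154 and 130.1 CPM in control vehicle against 112, 58.4 and 111 CPM in Dicer KO vehicle. Dicer KO replicate 2 was the lowest by far, and the vehicle difference was not called (log2 fold change -0.59 ± 0.22 SE and adjusted p = 0.0535). Without that pair of libraries it was smaller and called (-0.4, adjusted p = 0.00237). In LPS it was -0.73 ± 0.22 SE (adjusted p = 0.0183), a call lost without replicate 2 of control LPS (adjusted p = 0.0547), replicate 2 of Dicer KO LPS (0.0559) or replicate 3 of Dicer KO LPS (0.0568). Aldoa, Aldoc and Tpi1, which split the hexose into trioses and interconvert them, were called lower in both conditions. Their log2 fold changes were -0.56 ± 0.09 SE, -0.39 ± 0.08 SE and -0.65 ± 0.14 SE in vehicle and -0.61 ± 0.09 SE, -0.43 ± 0.09 SE and -0.98 ± 0.14 SE in LPS.

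The regulators of phosphofructokinase were both lower at rest and parted after LPS. Pfkfb3 and Pfkfb4 encode enzymes that make and degrade fructose 2,6-bisphosphate, the activator of phosphofructokinase. Pfkfb3 (chromosome 2, 11471433 to 11554077) measured 68.4, 59.4 and 50.4 CPM in control vehicle against 38.1, 28.9 and 40.5 CPM in Dicer KO vehicle (log2 fold change -0.73 ± 0.11 SE and adjusted p = 0.000138). With LPS, Pfkfb3 was at 1253, 1219 and 1260 CPM in control and 1546, 1618 and 1629 CPM in Dicer KO, and every Dicer KO library was above every control library (log2 fold change 0.36 ± 0.1 SE and adjusted p = 0.00815). It was the one member called in opposite directions by genotype in vehicle and LPS, but with plain library totals the LPS difference was 0.01 (adjusted p = 0.949). Pfkfb4 (chromosome 9, 108991778 to 109032228) measured 67.5, 65.3 and 57.6 CPM in control vehicle against 52.9, 47.5 and 52.3 CPM in Dicer KO vehicle. Its values in LPS were 35.1, 36.3 and 36.0 CPM in control and 17.8, 17.8 and 16.6 CPM in Dicer KO. The Pfkfb4 groups overlapped in neither condition, with log2 fold changes of -0.32 ± 0.06 SE in vehicle (adjusted p = 0.000403) and -1.04 ± 0.08 SE in LPS (adjusted p = 2.13e-09).

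All 6 genes of lower glycolysis were called lower in both conditions, and none of their groups overlapped. The share of all genes without overlap was not counted. Pgk1 (chromosome X, 106187100 to 106203699), the phosphoglycerate kinase that makes the first ATP of the pathway, measured 888, 814 and 652 CPM in control vehicle against 429, 274 and 425 CPM in Dicer KO vehicle. In LPS Pgk1 measured 1099, 1153 and 1086 CPM in control and 621, 506 and 464 CPM in Dicer KO. It was 2.09-fold lower in vehicle (log2 fold change -1.06 ± 0.18 SE and adjusted p = 0.00105) and 2.1-fold lower in LPS (log2 fold change -1.07 ± 0.18 SE and adjusted p = 0.000667). The Pgk1 promoter, shown above, held ACGTG at 2 places, and any part of these in the fall was not tested. Eno1 (chromosome 4, 150236721 to 150248879), alpha-enolase, measured 945, 954 and 902 CPM in control vehicle against 686, 477 and 664 CPM in Dicer KO vehicle. In LPS Eno1 measured 1210, 1367 and 1237 CPM in control and 742, 644 and 627 CPM in Dicer KO. These were falls of 0.62 ± 0.11 SE in vehicle (adjusted p = 0.000602) and 0.92 ± 0.11 SE in LPS (adjusted p = 1.17e-05) on the log2 scale. Pgam1 (chromosome 19, 41911923 to 41918660), phosphoglycerate mutase, measured 243, 234 and 213 CPM in control vehicle against 163, 127 and 162 CPM in Dicer KO vehicle. Its LPS values were 269.6, 273 and 273 CPM in control and 175, 161 and 167 CPM in Dicer KO, with log2 fold changes of -0.61 ± 0.08 SE in vehicle (adjusted p = 8.01e-06) and -0.7 ± 0.08 SE in LPS (adjusted p = 9.5e-07). Gapdh, glyceraldehyde-3-phosphate dehydrogenase and a common reference gene, was -0.59 ± 0.1 SE in vehicle and -0.67 ± 0.1 SE in LPS. Ldha, which makes lactate, was -0.53 ± 0.1 SE and -0.73 ± 0.1 SE, and Pkm, pyruvate kinase, -0.32 ± 0.06 SE and -0.47 ± 0.06 SE. These enzymes have many processed pseudogenes. The share of a gene's 50-base exon windows that also occur in other annotated genes was 82.5% for Gapdh, 72.2% for Eno1, 68% for Pgk1, 41.5% for Pgam1, 34.4% for Pkm and 16.6% for Ldha, and reads from such windows may have been lost or split between copies.

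**Figure D2:**
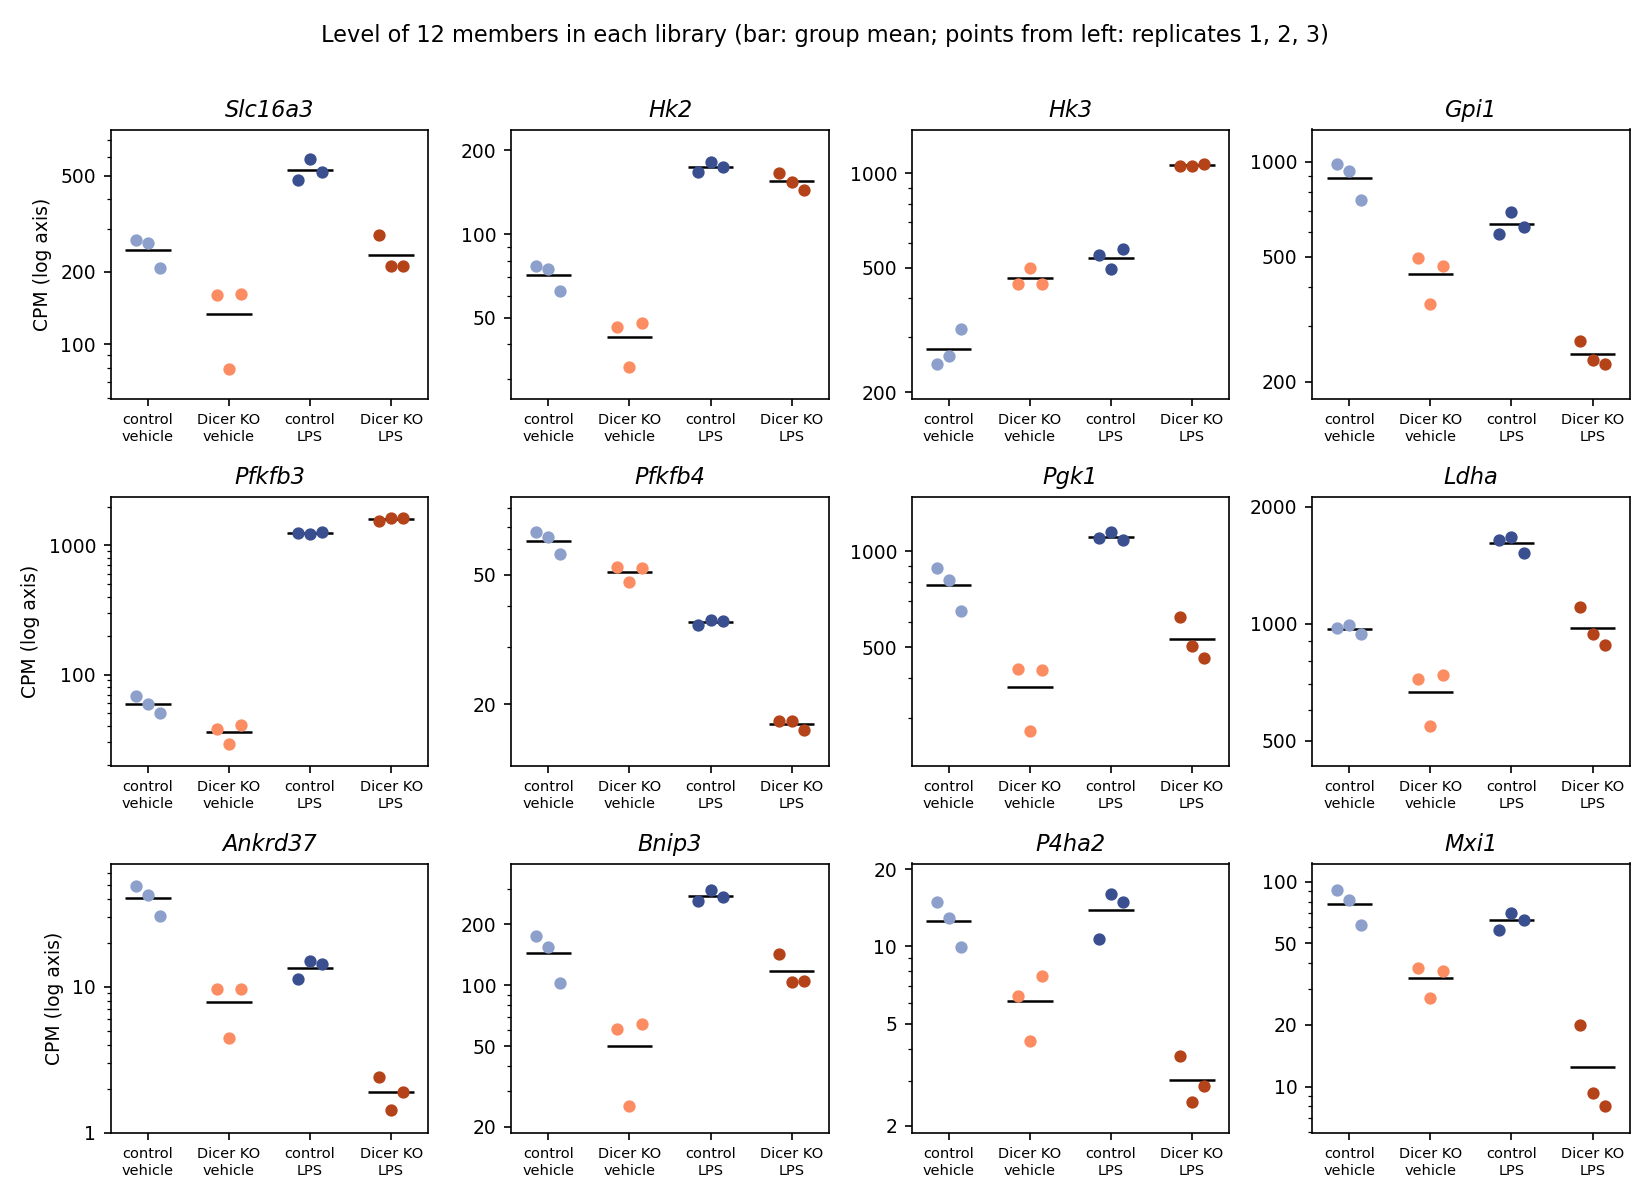
CPM on log axes for 12 members, with 1 point per library and a bar at the mean of each group of 3. In resting cells the Dicer KO points lie below the control points in every panel but that of Hk3, and after LPS in every panel but those of Hk3 and Pfkfb3.

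The other hypoxia-inducible targets had larger differences than the glycolytic genes at the median. In both conditions 11 of 13 were called lower and none higher. The 2 that were not called in vehicle were P4ha1 and Ddit4, and in LPS P4ha1 and Kdm3a. Ankrd37 (chromosome 8, 45996902 to 46005707), an ankyrin repeat gene known as a HIF target, had the largest fitted vehicle difference of all 34 members. That of Adm was nearly equal, at a log2 fold change of -2.35 ± 0.65 SE from few counts. Ankrd37 is described first. It measured 48.7, 42.6 and 30.4 CPM in control vehicle against 9.59, 4.43 and 9.57 CPM in Dicer KO vehicle, a fall of 5.12-fold (log2 fold change -2.36 ± 0.26 SE and adjusted p = 5.34e-05). Its LPS values were 11.2, 14.9 and 14.3 CPM in control and 2.40, 1.43 and 1.88 CPM in Dicer KO, from 32, 19 and 25 counts, a fall of 7.07-fold (log2 fold change -2.82 ± 0.42 SE and adjusted p = 0.000258). The groups overlapped in neither condition. Its exons overlap opposite-strand genes over 26.4% of their length, and the strand setting of the counts is not given in the sources used here. Bnip3 (chromosome 7, 138890836 to 138909519), a mitophagy receptor of the outer mitochondrial membrane, measured 176, 155 and 103 CPM in control vehicle against 60.8, 25.4 and 64.5 CPM in Dicer KO vehicle. After LPS Bnip3 measured 261, 294 and 271 CPM in control and 143, 104 and 105 CPM in Dicer KO. It was lower without overlap in both (log2 fold change -1.52 ± 0.34 SE and adjusted p = 0.00567 in vehicle, and log2 fold change -1.23 ± 0.33 SE and adjusted p = 0.0109 in LPS). Of its 50-base windows, 62.4% also occur in other annotated genes.

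Mxi1 (chromosome 19, 53310518 to 53375810), an antagonist of Myc, measured 90.6, 81.3 and 61.6 CPM in control vehicle against 37.9, 27.1 and 36.6 CPM in Dicer KO vehicle (log2 fold change -1.2 ± 0.25 SE and adjusted p = 0.00403). With LPS, Mxi1 was at 58.2, 70.7 and 65.2 CPM in control and 19.9, 9.31 and 8.06 CPM in Dicer KO, a fall of 5.21-fold (log2 fold change -2.38 ± 0.31 SE and adjusted p = 0.00014), with Dicer KO replicate 1 above the other two. P4ha2 (chromosome 11, 54100095 to 54131665), a catalytic subunit of collagen prolyl 4-hydroxylase, measured 14.8, 12.9 and 9.99 CPM in control vehicle against 6.42, 4.27 and 7.70 CPM in Dicer KO vehicle. In LPS P4ha2 measured 10.7, 16.0 and 14.9 CPM in control and 3.76, 2.48 and 2.86 CPM in Dicer KO, so that the groups overlapped in neither condition. It was log2 fold change -1.03 ± 0.21 SE and adjusted p = 0.00151 in vehicle, and log2 fold change -2.19 ± 0.27 SE and adjusted p = 1.19e-05 in LPS. P4ha1, its more abundant paralog, measured 146, 143 and 121 CPM in control vehicle against 150.5, 106 and 142 CPM in Dicer KO vehicle, which overlapped, and 268, 267 and 276 and 322, 306 and 320 CPM in LPS. Neither P4ha1 difference was called (-0.04 ± 0.1 SE in vehicle and 0.22 ± 0.1 SE in LPS). P4ha2 thus made up 5.69% ± 0.571 (SD, n = 3) of the pair per kilobase in control vehicle against 2.92% ± 0.46 in Dicer KO vehicle, and 3.26% ± 0.632 and 0.627% ± 0.122 in LPS, with no overlap in either condition.

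Ndrg1 (chromosome 15, 66929318 to 66969640), a stress-response gene, differed by much more than its replicates did. It measured 199, 187 and 178 CPM in control vehicle against 97.7, 89.8 and 98.1 CPM in Dicer KO vehicle, with 93.7, 106 and 101 CPM in control LPS and 51.1, 42.8 and 40.5 CPM in Dicer KO LPS. Its log2 fold changes were -0.98 ± 0.07 SE in vehicle (adjusted p = 5.5e-09) and -1.16 ± 0.08 SE in LPS (adjusted p = 7.61e-10), and 14.6% of its 50-base windows also occur in other genes. Mgarp (chromosome 3, 51388412 to 51396738), a mitochondrial protein gene, was near the limit of detection. It had 104, 83 and 63 counts in control vehicle and 27, 5 and 34 in Dicer KO vehicle (log2 fold change -1.69 ± 0.4 SE and adjusted p = 0.00416). In LPS it had 94, 177 and 105 counts in control and 13, 9 and 8 in Dicer KO, the largest LPS difference of all members (log2 fold change -3.37 ± 0.45 SE and adjusted p = 3.12e-05). Adm, the vasodilator peptide adrenomedullin, had 21, 6 and 11 counts in control vehicle and 4, 1 and 1 in Dicer KO vehicle. Its vehicle difference was called (log2 fold change -2.35 ± 0.65 SE and adjusted p = 0.00539) but rests on these few counts, and was -3.23 without replicate 1 of Dicer KO vehicle. In LPS Adm had 41, 64 and 58 counts in control and 9, 5 and 13 in Dicer KO (log2 fold change -2.32 ± 0.35 SE and adjusted p = 1.96e-05).

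Of the remaining targets, Pdk1, the kinase that inactivates pyruvate dehydrogenase, was lower by a log2 fold change of -0.7 ± 0.11 SE in vehicle and -0.78 ± 0.12 SE in LPS. Car9, carbonic anhydrase IX, measured 8.13, 8.596 and 7.73 CPM in control vehicle against 5.72, 5.30 and 5.60 CPM in Dicer KO vehicle, and 4.91, 5.39 and 5.77 CPM in control LPS against 2.56, 2.25 and 1.96 CPM in Dicer KO LPS, the last from 34, 30 and 26 counts. Its log2 fold changes were -0.56 ± 0.11 SE in vehicle and -1.25 ± 0.15 SE in LPS, and the groups overlapped in neither. Higd1a, a mitochondrial inner membrane protein, measured 18.7, 17.7 and 16.9 CPM in control vehicle against 15.4, 13.8 and 14.98 CPM in Dicer KO vehicle, and 41.7, 46.2 and 41.4 CPM in control LPS against 22.6, 19.4 and 21.7 CPM in Dicer KO LPS. It was lower without overlap in both (log2 fold changes -0.27 ± 0.08 SE and -1.02 ± 0.08 SE). Ddit4, the mTORC1 inhibitor REDD1, measured 8.66, 6.40 and 4.09 CPM in control vehicle against 4.09, 4.79 and 4.25 CPM in Dicer KO vehicle, which overlapped at control replicate 3. The Ddit4 difference was not called in vehicle (log2 fold change -0.55 ± 0.24 SE and adjusted p = 0.0829) but was without replicate 3 of control vehicle and replicate 2 of Dicer KO vehicle (-0.85, adjusted p = 0.000608), and in LPS it was -1 ± 0.23 SE (adjusted p = 0.00242). Kdm3a, a histone H3 lysine 9 demethylase, had the smallest called difference in vehicle (log2 fold change -0.16 ± 0.07 SE and adjusted p = 0.0473). Its vehicle groups overlapped, and the call was lost without replicate 1 of control vehicle (adjusted p = 0.116), replicate 2 of control vehicle (0.171) or replicate 2 of Dicer KO vehicle (0.281), and in DESeq2 (0.0812). It was also lost without replicate 3 of control LPS or any 1 of the Dicer KO LPS libraries (0.0567 to 0.067). These libraries enter through the shared filter, scaling, estimate of the spread and adjustment of p.

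Within enzyme families the make-up of the transcripts differed between genotypes. Shares are of CPM per kilobase of exon, with the exons of all annotated transcripts of a gene merged, and no test was made on them. The transcripts present in these cells may be shorter, so shares between genes depend on the length used. Hk3 made up 75.2% ± 3.55 (SD, n = 3) of the hexokinase total in control vehicle against 86.4% ± 2.06 in Dicer KO vehicle, and 68.1% ± 2.23 and 80.2% ± 0.964 in LPS. Hk2 made up 12.2% ± 2.3 and 4.94% ± 1.12 in vehicle and 13.7% ± 1.08 and 7.22% ± 0.488 in LPS. Neither share overlapped between genotypes. Among phosphofructokinases, Pfkl led per kilobase with 58.2% ± 1.41 in control vehicle against 52.3% ± 8.37 in Dicer KO vehicle, and with 60.7% ± 2.05 and 51.6% ± 2.65 in LPS. This order rests on merged exon lengths of 13401 bases for Pfkp and 6675 for Pfkl. In plain CPM, Pfkp was above Pfkl in Dicer KO LPS, at 257, 255 and 250.5 CPM against 177, 151 and 150 CPM. The Pfkl ranges in vehicle, 56.9 to 59.7% in control and 42.6 to 57.4% in Dicer KO, overlapped, and those in LPS, 58.9 to 62.9% and 49.9 to 54.7%, did not. Pfkfb3 was 37.5% ± 1.8 of the Pfkfb3 and Pfkfb4 total in control vehicle against 31.1% ± 2.63 in Dicer KO vehicle, and after LPS 95.7% ± 0.125 and 98.3% ± 0.0983. Slc16a1 was 3.55% ± 0.86 of the monocarboxylate transporter pair in control vehicle against 6.63% ± 3.38 in Dicer KO vehicle, ranges that overlapped, and 12% ± 1.11 and 20.1% ± 2.86 in LPS, ranges that did not. Aldoa was at least 97.1% of the aldolase pair in every library.

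**Figure D3:**
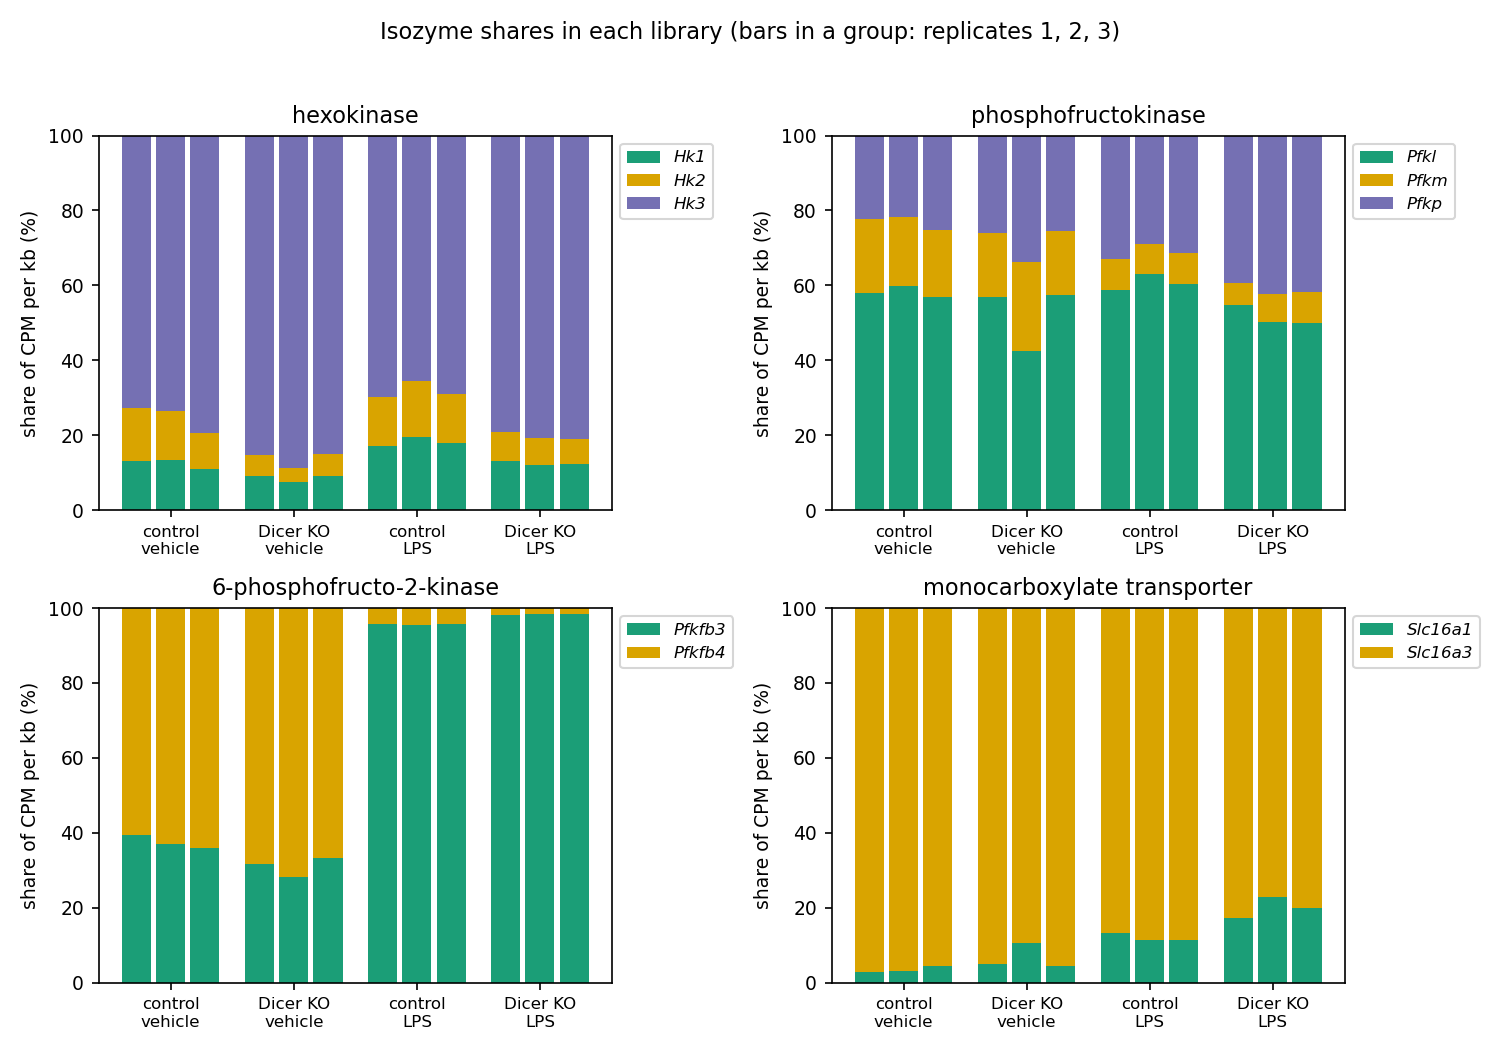
Share of each isozyme (percent of CPM per kb of its family, y axis) in each library, with 3 bars per group. The hexokinase panel shows the larger Hk3 share in Dicer KO in both treatments, and the 6-phosphofructo-2-kinase panel the change from mostly Pfkfb4 to mostly Pfkfb3 with LPS.

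LPS raised the transporter and hexokinase genes of glycolysis in both genotypes, and Pfkfb3 most of all. The other hypoxia targets went both ways, with 5 called higher and 4 lower in both genotypes. In control, 22 of 34 members were called higher and 8 lower, where 38.0% of all genes tested were called higher and 41.1% lower. In Dicer KO, 17 members were called higher and 10 lower, against 37.4% and 42.7% of all genes. The median log2 fold change of the glycolytic members was 0.5 in both genotypes, that of the other targets 0.14 in control and -0.48 in Dicer KO, and that of all genes -0.06 and -0.1. In all, 17 members were called higher in both genotypes and 8 lower in both, against 32.5% and 35.3% of all genes tested. These comparisons depend on the scaling. With plain library totals the median of all genes moved by -0.52 in control and -0.75 in Dicer KO, and 11 members were called higher and 13 lower in control and 9 higher and 18 lower in Dicer KO. Of all 13837 genes tested, 3066 were then called higher and 8737 lower in control, and 2637 and 9623 in Dicer KO. The 7 glycolytic genes still called higher with library totals were Slc2a1, Slc16a1, Hk1, Hk2, Hk3, Pfkp and Pfkfb3 in each genotype. The genotype comparisons above and the LPS comparisons share groups, so their values stand side by side here and are not independent.

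Among these 7, the 3 replicates of each LPS group were above all vehicle replicates of their genotype. The 7 were picked by their calls, so this adds no support to them. Pfkfb3 was 20.9-fold higher with LPS in control (log2 fold change 4.39 ± 0.12 SE and adjusted p = 5.44e-14) and 44.5-fold higher in Dicer KO (log2 fold change 5.48 ± 0.13 SE and adjusted p = 6.98e-15). Slc16a1 was 8.08-fold higher in control and 6.99-fold in Dicer KO, and Slc2a1 3.57-fold and 5.2-fold. Hk1 rose by 1.67 ± 0.06 SE on the log2 scale in control and 1.85 ± 0.06 SE in Dicer KO, Hk2 by 1.29 ± 0.12 SE and 1.86 ± 0.12 SE, Hk3 by 0.97 ± 0.08 SE and 1.2 ± 0.08 SE, and Pfkp by 1.27 ± 0.05 SE and 1.37 ± 0.05 SE. Slc16a3 (1.1 ± 0.26 SE in control and 0.82 ± 0.27 SE in Dicer KO) and Pfkl (0.9 ± 0.22 SE and 0.76 ± 0.22 SE) were also called higher with TMM. With library totals neither was called, and Slc16a3 in Dicer KO lost its call without replicate 1 of Dicer KO LPS (0.66, adjusted p = 0.0681).

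Lower glycolysis moved little with LPS. All 6 genes were called higher in control, from 0.24 ± 0.08 SE for Pgam1 to 0.73 ± 0.1 SE for Ldha, and 3 in Dicer KO, namely Gapdh (0.34 ± 0.1 SE), Pgk1 (0.5 ± 0.18 SE) and Ldha (0.54 ± 0.1 SE). With library totals Gapdh, Pgk1, Pgam1, Eno1 and Pkm had negative values in both genotypes, between -0.02 and -0.28 in control and between -0.25 and -0.63 in Dicer KO, and Ldha was 0.21 in control and -0.2 in Dicer KO. The calls of Pgam1 (-0.28, adjusted p = 0.00291) and Pkm (-0.26, adjusted p = 0.000522) in control and of Gapdh in Dicer KO (-0.41, adjusted p = 0.00278) then turned from higher to lower. Pgam1, Eno1, Pkm and Tpi1, not called with TMM in Dicer KO, were called lower there. The Pgk1 call in control was lost without replicate 3 of control vehicle (0.39, adjusted p = 0.114) or replicate 2 of control LPS (adjusted p = 0.055), and in Dicer KO without replicate 2 of Dicer KO vehicle (0.31, adjusted p = 0.0575) or replicate 1 of Dicer KO LPS (0.37, adjusted p = 0.11). Tpi1 was called higher in control (log2 fold change 0.34 ± 0.14 SE and adjusted p = 0.0392), a call lost on leaving out any 1 library of that comparison, and had a value of 0.01 ± 0.14 SE in Dicer KO. Gpi1, Pfkm, Aldoc and Pfkfb4 were called lower in both genotypes under both scalings. Gpi1 was -0.49 ± 0.13 SE in control and -0.84 ± 0.13 SE in Dicer KO, and Pfkfb4 -0.83 ± 0.06 SE and -1.55 ± 0.07 SE.

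The other targets split after LPS. Ankrd37 (-1.59 ± 0.25 SE in control and -2.05 ± 0.45 SE in Dicer KO), Ndrg1 (-0.9 ± 0.07 SE and -1.09 ± 0.08 SE), Car9 (-0.6 ± 0.11 SE and -1.3 ± 0.15 SE) and Pdk1 (-0.56 ± 0.11 SE and -0.64 ± 0.11 SE) were called lower in both genotypes. P4ha1 (0.98 ± 0.1 SE and 1.25 ± 0.11 SE), Bnip3 (0.93 ± 0.32 SE and 1.22 ± 0.34 SE), Ddit4 (1.15 ± 0.22 SE and 0.7 ± 0.26 SE), Higd1a (1.28 ± 0.07 SE and 0.53 ± 0.08 SE) and Adm were called higher in both. Adm went from 21, 6 and 11 counts to 41, 64 and 58 in control. Mgarp was called higher in control (log2 fold change 1.19 ± 0.3 SE and adjusted p = 0.00293) and not called in Dicer KO (log2 fold change -0.48 ± 0.61 SE and adjusted p = 0.472). Mxi1 and P4ha2 were called lower in Dicer KO (-1.45 ± 0.32 SE and -1.02 ± 0.29 SE) and not called in control (-0.27 ± 0.24 SE and 0.14 ± 0.2 SE). With library totals the Bnip3 rise was called in neither genotype, and in Dicer KO Ddit4 was -0.05 and not called, and Higd1a turned from called higher to called lower (-0.22, adjusted p = 0.0239). The Bnip3 call in control was lost without replicate 3 of control vehicle (0.74, adjusted p = 0.0727) or replicate 2 of control LPS (0.9, adjusted p = 0.0544). In Dicer KO the Ddit4 call was lost without replicate 1 of Dicer KO vehicle (0.65, adjusted p = 0.0727), replicate 3 of Dicer KO vehicle (0.68, adjusted p = 0.0618) or replicate 1 of Dicer KO LPS (0.46, adjusted p = 0.136).

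**Figure D4:**
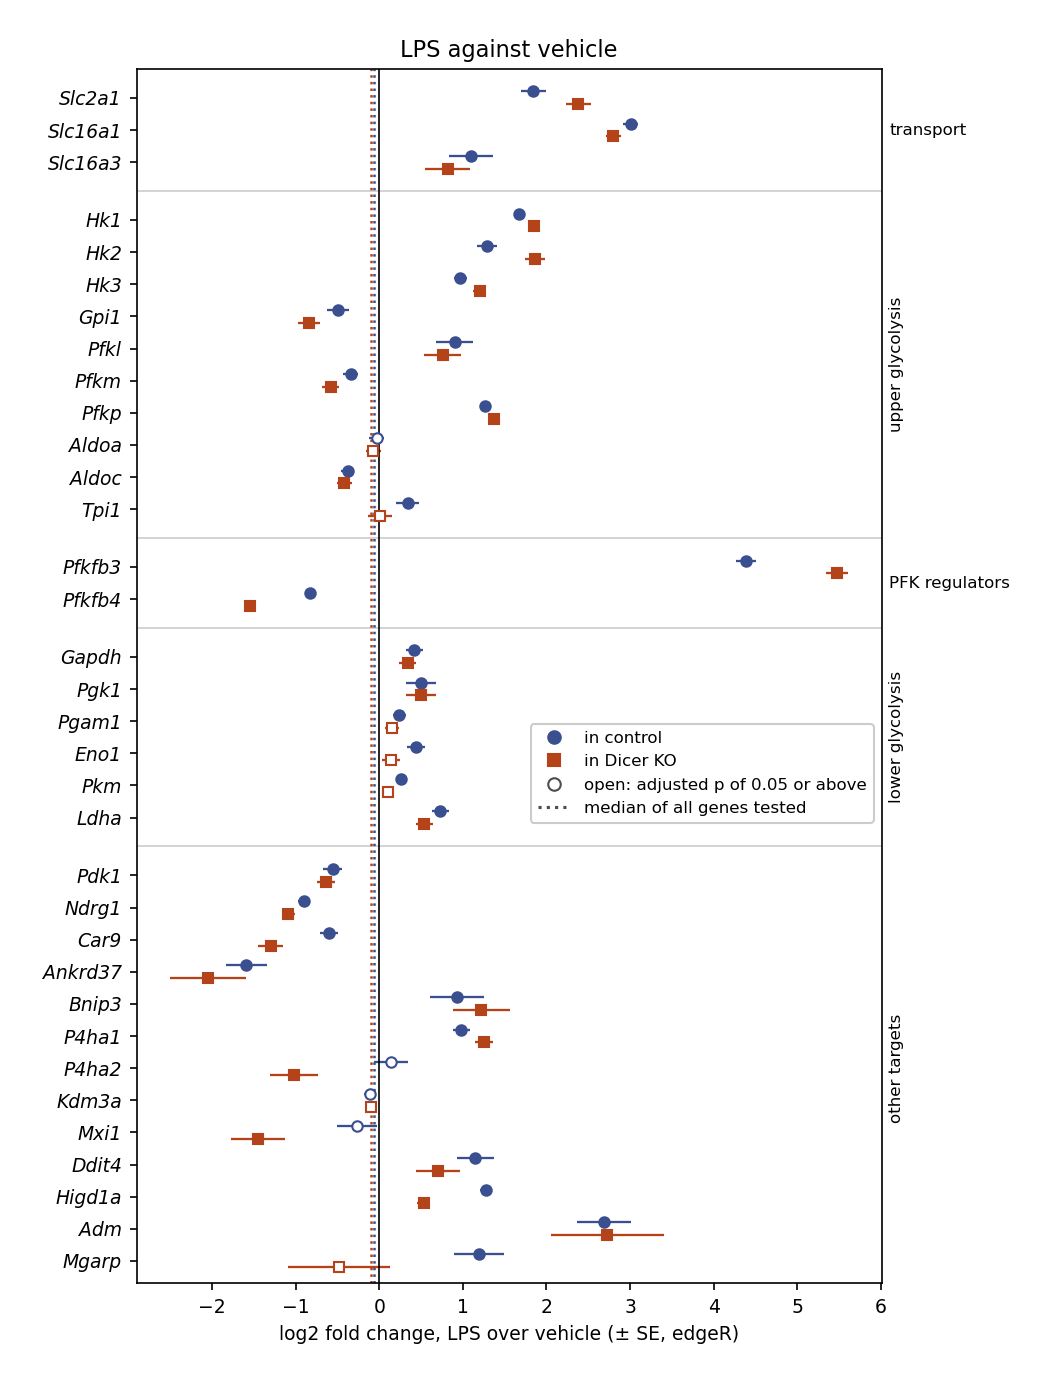
Log2 fold change of LPS over vehicle (x axis, bars are ± 1 SE from edgeR) for the 34 members by role, in control (circles) and in Dicer KO (squares). Filled symbols were called, and dotted lines mark the median of all genes tested, -0.06 in control and -0.1 in Dicer KO. Pfkfb3 stands at 4.39 and 5.48, while lower glycolysis lies between 0.11 and 0.73.

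The test of the interaction asked whether the LPS response differed between the genotypes. It called 2 members higher, meaning a response that lay further up in Dicer KO, and 4 lower, where 14.9% of all genes were called higher and 18.8% lower. These counts depend on the setting. They were 1 higher and 15 lower with library totals, 4 and 6 under DESeq2, and 3 and 11 without replicate 2 of Dicer KO vehicle. Of all 13837 genes tested, 997 were called higher and 5136 lower with library totals, and 2301 and 2070 under DESeq2. Without that replicate, 1896 and 2501 of 14094 were. Pfkfb3 responded more strongly in Dicer KO (log2 fold change 1.09 ± 0.15 SE and adjusted p = 9.44e-05), as did Hk2 (log2 fold change 0.57 ± 0.17 SE and adjusted p = 0.0202). Library totals ended the Hk2 call (0.35, adjusted p = 0.123), as did leaving out replicate 1 of control vehicle (0.52, adjusted p = 0.0534), replicate 1 of control LPS (0.53, adjusted p = 0.051) or replicate 1 of Dicer KO LPS (0.51, adjusted p = 0.0553). Lower were P4ha2 (log2 fold change -1.16 ± 0.35 SE and adjusted p = 0.0216), Higd1a (log2 fold change -0.75 ± 0.11 SE and adjusted p = 4.26e-05), Pfkfb4 (log2 fold change -0.72 ± 0.1 SE and adjusted p = 2.28e-05) and Car9 (log2 fold change -0.69 ± 0.19 SE and adjusted p = 0.00839). That of P4ha2 was lost without replicate 2 of Dicer KO LPS (-1.04, adjusted p = 0.0681) or replicate 3 (-1.13, adjusted p = 0.0602). Pfkfb3 and Pfkfb4, which share a substrate, thus had interactions of opposite sign. Mxi1 (log2 fold change -1.18 ± 0.4 SE and adjusted p = 0.0509), Mgarp (log2 fold change -1.68 ± 0.67 SE and adjusted p = 0.0722) and Slc2a1 (log2 fold change 0.54 ± 0.21 SE and adjusted p = 0.0707), named after their values were seen, were not called. Without replicate 1 of Dicer KO LPS, the Mxi1 interaction was larger and called (-1.7, adjusted p = 0.00316). No gene of lower glycolysis was called, with values between -0.3 and -0.01.

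Replicates of a group differed from each other, and most members did so in the same direction within a library. Replicate 3 of control vehicle was the lowest of its group for 29 of 34 members, against 38.5% of all genes tested, and replicate 2 of Dicer KO vehicle for 30 of 34, against 37.2%. Replicate 2 of control LPS was the highest of its group for 27 of 34 members (33.4% of all genes) and replicate 1 of Dicer KO LPS for 28 of 34 (37.9%). The mean of log2(CPM + 0.5) over the 21 glycolytic members was 7.84, 7.83 and 7.7 in control vehicle and 7.41, 7.03 and 7.4 in Dicer KO vehicle. It was 8.58, 8.67 and 8.58 in control LPS and 8.19, 8.06 and 8.03 in Dicer KO LPS. Over the 13 other targets it was 5.02, 4.84 and 4.6 in control vehicle and 4.1, 3.63 and 4.1 in Dicer KO vehicle, and 4.95, 5.23 and 5.12 in control LPS and 3.97, 3.61 and 3.65 in Dicer KO LPS. Control and Dicer KO libraries of the same treatment overlapped in neither block. Replicate 3 of control vehicle and replicate 2 of Dicer KO vehicle also stood apart in the counts of all genes. In pairs with the first, chi-square divided by its degrees of freedom came to 9.84 and 14.1, against 2.54 for the other pair of its group, and to 8.4 and 11.9 against 2.3 for the second. Without both, 28 members were called lower and 1 higher in vehicle (Pfkp and Kdm3a lost their call, and Pfkl and Ddit4 gained one), with medians of -0.52 for the glycolytic members and -0.97 for the other targets. In LPS, where both entered only through the shared filter, scaling, estimate of the spread and adjustment of p, 29 were called lower and 4 higher. For the interaction 12 were called lower and 4 higher, with Gpi1 (-0.38), Pfkl (-0.33), Tpi1 (-0.43), Eno1 (-0.43), Pkm (-0.22) and Ldha (-0.3) among those called lower. Of all 13988 genes tested then, 3030 were called lower and 3587 higher in vehicle, 4063 and 4261 in LPS, and 2862 and 2227 for the interaction.

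**Figure D5:**
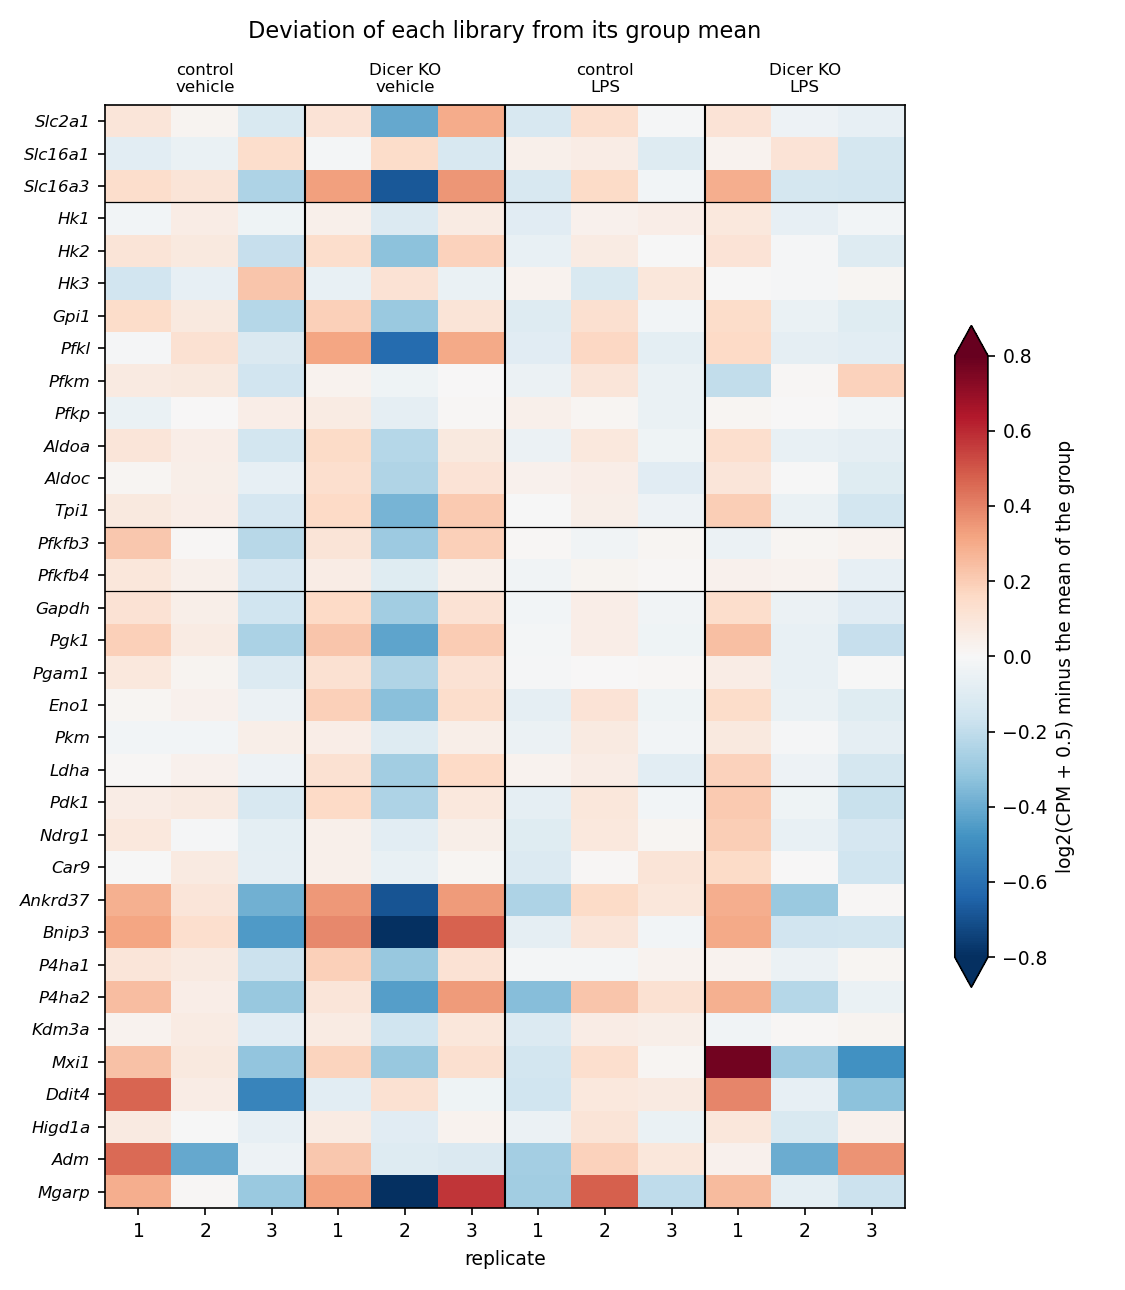
Deviation of log2(CPM + 0.5) from the mean of its group for the 34 members (rows, by role) in the 12 libraries (columns), with blue below and red above the group mean and the colour scale ending at 0.8 either way. replicate 2 of Dicer KO vehicle is the lowest of its group in 30 of 34 rows, and Hk3, Slc16a1, Ddit4 and Adm are the exceptions.

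Genes next to the set were counted from lists of other pathway members. Their counts stand against the 21.2% of all genes called lower and 25.0% called higher in vehicle, and the 27.0% and 28.8% in LPS. Of 34 further hypoxia targets 32 passed the filter, and in vehicle 17 were called lower and 5 higher in Dicer KO. In LPS 22 were called lower and 7 higher, and the median log2 fold change of the list was -0.41 and -0.96. Vegfa, the vascular growth factor, measured 133 ± 55.7 (SD, n = 3) CPM in control vehicle against 26.3 ± 12.6 (SD, n = 3) CPM in Dicer KO vehicle (log2 fold change -2.33 ± 0.45 SE and adjusted p = 0.00295), and -3.08 ± 0.67 SE on the log2 scale in LPS. Egln3, a prolyl hydroxylase that marks HIF alpha for degradation and is itself a HIF target, measured 70.0 ± 16.9 (SD, n = 3) and 16.8 ± 9.76 (SD, n = 3) CPM (log2 fold change -2.04 ± 0.41 SE and adjusted p = 0.00339), and -4.17 ± 0.63 SE in LPS. Selenbp1 (-1.41 ± 0.2 SE in vehicle and -3.18 ± 0.28 SE in LPS) and Rcor2 (-1.41 ± 0.33 SE and -2.97 ± 0.3 SE) were also called lower in both, with 52.3% of the 50-base windows of Selenbp1 shared, among others with Selenbp2.

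Of 9 genes of glycogen and hexose entry 4 were called lower and none higher in vehicle, and 6 lower and 1 higher in LPS. Gys1, glycogen synthase, measured 68.5 ± 17.0 (SD, n = 3) CPM in control vehicle against 27.6 ± 7.31 (SD, n = 3) CPM in Dicer KO vehicle (log2 fold change -1.31 ± 0.25 SE and adjusted p = 0.00219). In LPS Gys1 measured 166 ± 20.4 (SD, n = 3) and 34.1 ± 5.71 (SD, n = 3) CPM (log2 fold change -2.29 ± 0.25 SE and adjusted p = 4.54e-05). Pygl, the glycogen phosphorylase, was -0.66 ± 0.1 SE in vehicle and -1.26 ± 0.11 SE in LPS, Galk1, galactokinase, -0.3 ± 0.09 SE (a call lost without replicate 1 of Dicer KO vehicle, adjusted p = 0.0608) and -1.34 ± 0.11 SE, and Ugp2 -0.18 ± 0.05 SE and, not called, -0.01 ± 0.05 SE. Of the 8 pentose phosphate genes, by contrast, 4 were called higher and none lower in vehicle. G6pdx, the first enzyme of that pathway, measured 186 ± 9.87 (SD, n = 3) CPM in control vehicle against 264 ± 10.2 (SD, n = 3) CPM in Dicer KO vehicle (log2 fold change 0.51 ± 0.06 SE and adjusted p = 8.69e-07), and Rpe, H6pd and Taldo1 were 0.29 ± 0.06 SE, 0.19 ± 0.06 SE and 0.16 ± 0.05 SE. In LPS 3 were called higher and 3 lower, and G6pdx was not called (0.08 ± 0.06 SE). The vehicle calls of H6pd and Taldo1 were lost with library totals (0.06 and 0.03) and without replicate 2 of control vehicle (adjusted p = 0.0619 and 0.112). That of H6pd was also lost without replicate 1 of Dicer KO vehicle (0.0574) or replicate 3 (0.0611), and that of Taldo1 without replicate 3 of control vehicle (0.0503).

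Around pyruvate dehydrogenase, 5 of 12 genes were called higher and 1 lower in vehicle, and 1 higher and 4 lower in LPS. The one lower in vehicle was Pdk2 (-0.77 ± 0.1 SE, and -1.08 ± 0.2 SE in LPS), a kinase that inactivates the complex like Pdk1 above. Pdp2 (0.7 ± 0.17 SE) and Pdp1 (0.36 ± 0.08 SE), the phosphatases that activate it, and Pdhx (0.37 ± 0.09 SE), a structural subunit, were higher in vehicle. In LPS Pdhx was called higher (0.31 ± 0.1 SE), a call lost without replicate 2 of Dicer KO LPS (adjusted p = 0.0676), and Pdp2 and Pdp1 were not called (-0.46 ± 0.2 SE and -0.27 ± 0.12 SE). Of 20 further glycolytic isozymes and side enzymes 15 passed the filter, with 2 called higher and 4 lower in vehicle and 3 higher and 6 lower in LPS. The vehicle counts are near or under those shares of all genes. Ldhb, the other lactate dehydrogenase subunit, measured 7.43 ± 1.37 (SD, n = 3) CPM in control vehicle against 2.67 ± 0.189 (SD, n = 3) CPM in Dicer KO vehicle (log2 fold change -1.47 ± 0.16 SE and adjusted p = 5.62e-07), and Eno3, the muscle enolase, was -0.93 ± 0.14 SE. Minpp1, an inositol phosphate phosphatase that also acts on bisphosphoglycerate, was higher in both conditions (0.75 ± 0.06 SE and 1.18 ± 0.06 SE). Tigar, which lowers fructose 2,6-bisphosphate, was 0.62 ± 0.1 SE in vehicle and, not called, -0.25 ± 0.11 SE in LPS.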

How the data were processed

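RNA was sequenced from 12 macrophage cultures, 3 in each of 4 groups, grouped by their titles. Per the labels' protocols, libraries came from a stranded mRNA kit. STAR 2.5, DESeq2 and the builds mm10 and GRCm38.p5 are named in the submitters' processing notes. The files deposited by the authors hold whole-number counts per Ensembl gene. How reads were counted, with which strand setting and annotation, is not given in the sources used here. Of the reads, 45.8 to 46.8% fell on no annotated gene and 9.85 to 11.6% were not unique. These rows stayed out of library sizes of 16172600 to 18886948 counts.

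Of 46078 identifiers, 45229 matched GENCODE M21, which gave symbols, GRCm38 coordinates and exon lengths. The unmatched ones held 0.141% of the counts. Genes passing filterByExpr (13837) were scaled by TMM and fitted with edgeR 4.0.16 in R 4.3.3, as a robust quasi-likelihood model of all 12 libraries with 1 mean per group and 5 comparisons, two-sided. The common biological coefficient of variation was 6.3%. The method was checked on simulated data drawn with the fitted spread, without an LPS effect or a difference in scaling between groups. That check therefore cannot speak to the choice of scaling. Alternatives were DESeq2 1.42.0, library totals, no filter, only the groups compared, a replicate block, leaving out each library, and leaving out replicate 3 of control vehicle with replicate 2 of Dicer KO vehicle. Same-numbered libraries of different groups did not deviate together as a rule (18 pairs, r from -0.42 to 0.34, 6 of them over 0.1), so the numbers were not used as pairs. Differently numbered pairs ran from -0.49 to 0.51. The highest was replicate 3 of control vehicle with replicate 2 of Dicer KO vehicle, the libraries that stood apart. Replicate 2 of control vehicle with replicate 1 of Dicer KO vehicle was at 0.43. Whether such libraries share a batch was not tested.

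The members, lists, tests and naming rule were chosen with earlier results of these data known. By that rule, up to 3 members of each glycolytic role and up to 6 other targets with the largest vehicle difference and a group mean of at least 5 CPM are described library by library, along with members with a called interaction of at least 1 on the log2 scale or with opposite genotype calls, and up to 4 called genes of each other list. Another marker list is not reported here.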

Additional observations from a re-analysis of the deposited data

Results flagged for a closer look

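The test of the interaction called 6 members, 2 higher and 4 lower, where 14.9% of all genes tested were called higher and 18.8% lower. The differences of log2 response of these members, Dicer KO minus control, were 1.09 for Pfkfb3, 0.57 for Hk2, -0.72 for Pfkfb4, -0.69 for Car9, -1.16 for P4ha2 and -0.75 for Higd1a. The calls of Hk2 and P4ha2 were lost on leaving out single libraries, as given above. Among the named genes of the other lists the same test was passed by Minpp1 (0.43), Ldhb (0.79), Galk1 (-1.04), Pygl (-0.6), G6pdx (-0.42), Tigar (-0.86), Pdp1 (-0.63), Pdp2 (-1.16), Rcor2 (-1.56) and Selenbp1 (-1.76). The named genes were chosen by their genotype difference in vehicle, which enters the interaction. The Pdp2 libraries had a mean of 6.54 CPM in control and 10.6 CPM in Dicer KO at rest, and 7.81 and 5.69 CPM in LPS, and the Rcor2 libraries 1.50 and 0.557 CPM in vehicle and 5.73 and 0.727 CPM in LPS.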

How the results depend on the processing

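The counts of members called kept within 1.5 times of their value in both genotype comparisons under DESeq2, no filter, the replicate block and only the groups compared, except that 1 other target was called higher in LPS in place of 0 under DESeq2, under only the groups compared, and without replicate 3 of control vehicle and replicate 2 of Dicer KO vehicle together. With library totals, 1 glycolytic member was called higher in LPS. The LPS response in control then had 7 glycolytic members higher and 7 lower, and that in Dicer KO 7 higher and 10 lower, with 2 other targets higher. For the interaction, glycolytic members called higher were 4 under DESeq2 and 1 with library totals, and those called lower 9 with library totals and 7 without the pair of libraries. Other targets called lower were 5 under DESeq2, 6 with library totals and 5 without the pair, where 1 was called higher. Leaving out each library in turn gave, for the interaction, 1 to 3 glycolytic members higher and 1 to 6 lower, and 2 to 5 other targets lower, and for LPS by genotype 0 to 1 other targets higher.

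With library totals the sign changed in the genotype comparisons for Hk1 (-0.1 in vehicle, -0.15 in LPS) and, in LPS, for P4ha1 (-0.13), G6pdx (-0.27), H6pd (-0.11), Rpe (-0.09), Taldo1 (-0.25) and Pdhx (-0.04). It changed for LPS in control for Tpi1 (-0.18), Gapdh (-0.1), Pgk1 (-0.02), Pgam1 (-0.28), Eno1 (-0.08), Pkm (-0.26) and P4ha2 (-0.38), and in Dicer KO for Tpi1 (-0.74), Gapdh (-0.41), Pgk1 (-0.25), Pgam1 (-0.59), Eno1 (-0.61), Pkm (-0.63), Ldha (-0.2), Ddit4 (-0.05) and Higd1a (-0.22). The median of all genes moved in the same direction (-0.13, -0.35, -0.52, -0.75 and, for the interaction, -0.23). Over all genes, library totals gave 2229 called higher and 4577 lower in vehicle, 1885 and 7626 in LPS, 3066 and 8737 for LPS in control, 2637 and 9623 for LPS in Dicer KO, and 997 and 5136 for the interaction, against 3459 and 2935, 3983 and 3741, 5258 and 5690, 5173 and 5905, and 2067 and 2602 with TMM. Other sign changes were of values near 0. They were Hk1 in vehicle (-0.01 with no filter, -0.01 to 0.08 over single libraries left out), P4ha1 in vehicle (-0.13 to 0.1, and 0.02 without the pair) and Ugp2 in LPS (0.04 under DESeq2). For LPS they were Aldoa (-0.1 to 0.02 in control, -0.18 to 0 and 0 under DESeq2 in Dicer KO), P4ha2 in control (0 without the pair), Tpi1 in Dicer KO (-0.02 with no filter, -0.15 to 0.11, and -0.16 without the pair) and Eno1 in Dicer KO (-0.01 to 0.23, and -0.01 without the pair). The Pfkl interaction ranged from -0.39 to 0. The cause of these changes was not tested beyond the construction of each setting.

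Same-numbered libraries did not deviate together as a rule, so they were not treated as a pairing. Some differently numbered ones did, up to r = 0.51, and no block was fitted for these. With the replicate number as a block, 27 members were called lower and 1 higher in vehicle (the call of Kdm3a was lost, at -0.17 and edgeR's adjusted p = 0.0599). The block changed no other call of a member. Depth limits Adm, Mgarp, Ankrd37, Car9 and P4ha2 most, with means of 0.677, 0.752, 1.91, 2.25 and 3.03 CPM in Dicer KO LPS.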
